A study of Homo sapiens with 2 samples.

Results

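The DNA methylation of 8 leukaemia surface antigen genes was examined in SKNO-1 and SKNO-siAE cells. The genes were CD79A as the B-lineage antigen, NCAM1 and CD7 as NK and T antigens, CD34 and CD38 as stem and progenitor antigens, and CD33, ITGAM and CD14 as myeloid antigens. They are 8 of the 20176 protein-coding genes of the GENCODE annotation (release 44, lifted to hg19) and were grouped as surface antigens. Each gene was followed from 1500 bp upstream of its transcript starts to the gene end. The sites used were CpG cytosines that had 5 or more reads in SKNO-1 as well as in SKNO-siAE, called shared sites, and each strand of a CpG was its own site. All 8 genes held shared sites and 0 were without, and together they held 917 of the 3168726 shared sites of the genome. The coverage of their CpG cytosines was partial, from 4.66% in NCAM1 to 32.4% in CD14.

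SKNO-1 is an acute myeloid leukemia cell line that carries the t(8;21) fusion RUNX1-RUNX1T1 (AML1-ETO). SKNO-siAE was derived from it with a lentiviral vector, pRRLcPPT.hPGK, that delivers the siAGF1 small interfering RNA against the fusion point of that transcript. Both lines were grown in the same medium, and each was measured in 1 library of methylC-capture sequencing (MCC-Seq), in which bisulfite-converted DNA is captured with probes and unmethylated cytosines are read as thymine. A level is the share of methylated reads, and pairs of values below name SKNO-1 before SKNO-siAE. Tests on these reads therefore compare 2 libraries and not the conditions, and neither sites nor reads are replicates. No library with an empty vector was analysed here, so the vector and the silencing cannot be told apart, and silencing of the transcript cannot be checked in DNA reads. RNA and protein of the antigens were not analysed here.

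Surface antigens are the proteins by which leukaemia cells are assigned to a lineage and a stage. In normal blood formation, stem and progenitor antigens such as CD34 are lost while lineage antigens are gained, and t(8;21) leukaemia is known for blasts that carry CD34 and, often, antigens of other lineages such as CD56 and B-cell proteins. CpG methylation at a promoter is generally associated with a silent gene, although a low level alone does not show that a gene is used.

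Stretches on which the comparison turned are printed 5′ to 3′ on the strand of the gene, from the GRCh37 (hg19) assembly, with capitals at CpGs that hold a shared site. The first group was shown because the reads at its sites were mostly unmethylated in SKNO-1 and mostly methylated in SKNO-siAE. The ITGAM stretch lies at chr16:31270996-31271204 on the + strand, from -300 to -92 bp of the start of ITGAM-201. The CD38 stretch lies at chr4:15779641-15779897 on the + strand, from -310 to -54 bp of CD38-201. The CD14 stretch lies at chr5:140012878-140013017 on the - strand, from -257 to -118 bp of CD14-201 but inside the annotated gene. The NCAM1 stretch lies at chr11:112833665-112833845 on the + strand, in an intron from +1524 to +1704 bp of NCAM1-201.
ITGAM: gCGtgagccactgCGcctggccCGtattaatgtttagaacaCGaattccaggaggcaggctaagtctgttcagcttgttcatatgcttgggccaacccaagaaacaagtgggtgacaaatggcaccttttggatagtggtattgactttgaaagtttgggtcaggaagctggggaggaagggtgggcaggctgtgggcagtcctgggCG
CD38: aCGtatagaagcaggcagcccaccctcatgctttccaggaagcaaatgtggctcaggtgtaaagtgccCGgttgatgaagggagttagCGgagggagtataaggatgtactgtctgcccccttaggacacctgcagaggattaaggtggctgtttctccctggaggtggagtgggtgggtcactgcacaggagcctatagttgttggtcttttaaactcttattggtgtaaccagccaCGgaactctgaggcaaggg
CD14: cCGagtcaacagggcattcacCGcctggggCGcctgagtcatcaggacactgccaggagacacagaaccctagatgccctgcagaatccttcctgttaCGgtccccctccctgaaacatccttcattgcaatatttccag
NCAM1: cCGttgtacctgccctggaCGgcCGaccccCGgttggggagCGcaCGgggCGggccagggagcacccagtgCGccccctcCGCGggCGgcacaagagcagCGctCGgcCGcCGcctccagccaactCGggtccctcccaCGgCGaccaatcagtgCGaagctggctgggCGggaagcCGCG

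For contrast, an upstream stretch of CD79A was included, since it was the only one of the 5 without a methylated read in SKNO-siAE. The CD79A stretch lies at chr19:42381049-42381348 on the + strand, the last 300 bases before CD79A-201.
CD79A: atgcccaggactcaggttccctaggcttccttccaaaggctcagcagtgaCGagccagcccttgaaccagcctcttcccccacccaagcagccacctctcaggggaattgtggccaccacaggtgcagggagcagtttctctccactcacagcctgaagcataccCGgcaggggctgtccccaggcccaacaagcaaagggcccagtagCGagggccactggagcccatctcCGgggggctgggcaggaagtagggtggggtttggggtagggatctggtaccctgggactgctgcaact

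These stretches differed in CpG content. The NCAM1 stretch of 181 bases held 22 CpGs, all with a shared site, whereas the ITGAM stretch of 209 bases held 5 and the CD79A stretch of 300 bases held 4. Over the promoter, taken from -1500 to +500 bp of the canonical start, the ratio of observed to expected CpG was lowest in CD79A at 0.139 and ITGAM at 0.153, and highest in NCAM1 at 0.650.

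As a group, the antigen genes were more often lower than higher in SKNO-1. A site was called where Fisher's exact test (2-sided) passed at a false discovery rate set over the whole genome and the levels differed by 0.2 or more. By this rule 179 of the 917 sites (19.5%) were lower in SKNO-1, against 11.7% of all shared sites. At the other end 19 sites (2.07%) were higher, against 4.40% of all shared sites. Under Bonferroni adjustment 40 sites were lower (4.36%, against 2.28% of all) and 3 higher (0.327%, against 0.669%). The 179 lower sites were spread unevenly: CD7 held 53, CD38 37, ITGAM 30, NCAM1 28, CD14 23, CD33 7, CD34 1 and CD79A 0. NCAM1, CD34 and CD79A thus had shares of lower sites below that of the genome, with 9.72%, 1.25% and 0%. The libraries themselves differed in the same direction, with genome-wide mean levels of 0.587 and 0.655, and the part of this shift in the antigen genes was not tested. The libraries held 83620068 and 82164216 site reads, and the median depth of a shared site was 16 and 15 reads, so that the level of any 1 site is imprecise. Without molecular identifiers, and with neighbouring sites read on the same fragments, the intervals given below cover counting error only and are narrow for the number of molecules. The highest levels given below for counts of 0 treat reads as independent and are likewise too low for the number of molecules.

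**Figure D1:**
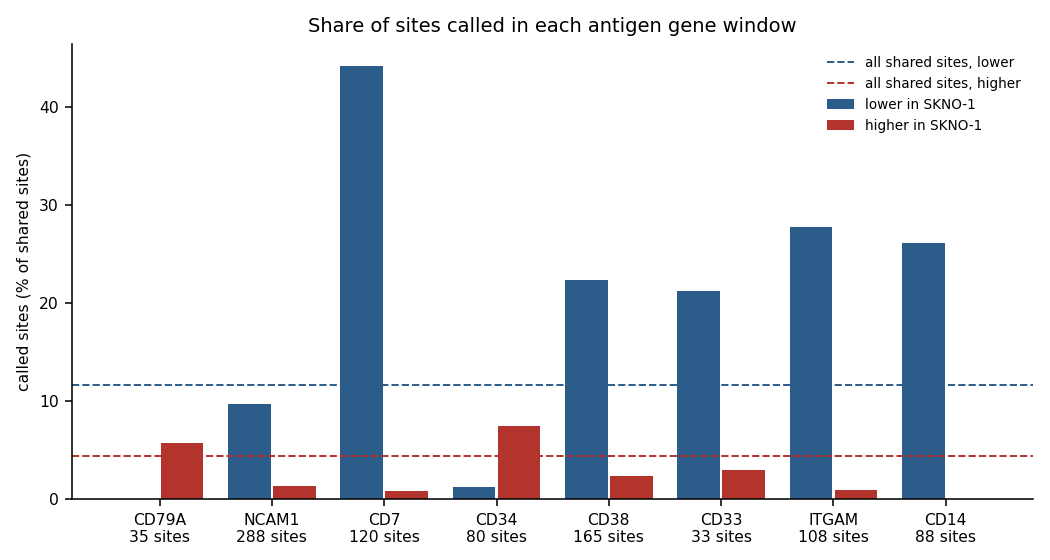
Share of shared sites called lower (blue bars) or higher (red bars) in SKNO-1 in the window of each antigen gene, in percent of the sites given under each name, with dashed lines for all shared sites. CD7, ITGAM, CD14, CD38 and CD33 lie above the 11.7% of all sites that were lower, and NCAM1, CD34 and CD79A lie below it.

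Taken by gene, the mean level over the window was at least 0.2 lower in SKNO-1 in 3 of the 8 genes, namely CD7, ITGAM and CD14, and at least 0.2 higher in 0. Among 19112 protein-coding gene windows with at least 5 shared sites, 11.7% were lower and 1.68% higher by this measure. For promoters, 4 of the 8 (CD38, ITGAM, CD14 and CD7) were lower and 0 higher, against 14.5% and 3.25% of 18049 promoters. The choice of promoter bears on this count, since from -1500 to -1 bp CD7 went from -0.259 to -0.134 and no longer reached 0.2, while CD33 went from -0.186 to -0.318 and reached it. The median promoter difference, SKNO-1 minus SKNO-siAE, was -0.222 over the 8 antigen genes and -0.0084 over all promoters, whose 5th and 95th percentiles were -0.477 and 0.128. The antigen promoters held fewer CpGs, with a median of 57.5 against 92, and a higher level in SKNO-siAE, with a median of 0.697 against 0.267. The part of CpG content in these differences was not tested.

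**Figure D2:**
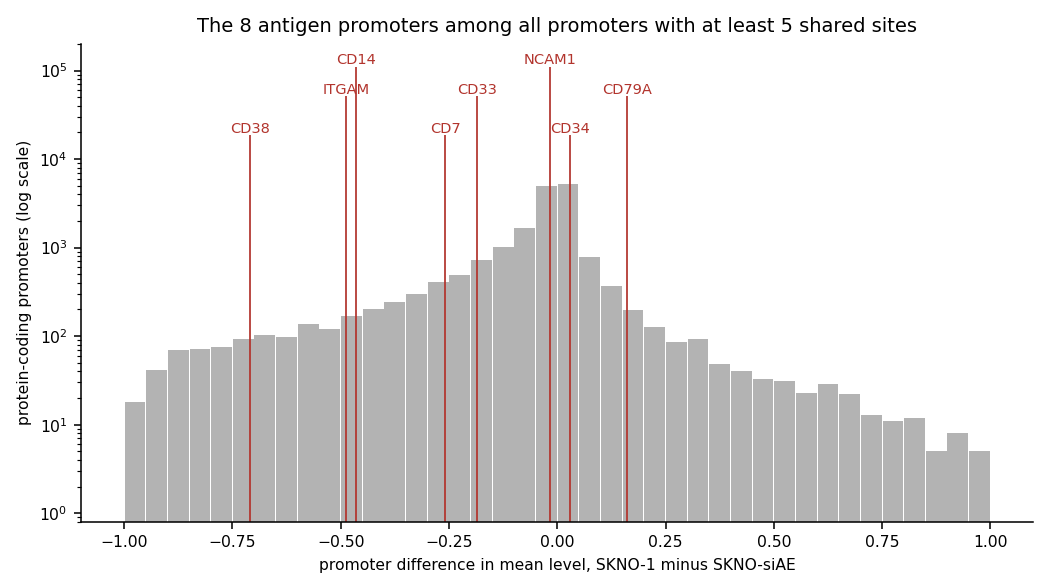
Number of protein-coding promoters (log scale) by their difference in mean methylation level, SKNO-1 minus SKNO-siAE, in bins of 0.05, with red lines at the 8 antigen promoters. CD38 at -0.710 lies farthest to the left, ITGAM and CD14 lie near the 5th percentile of -0.477, and CD79A at 0.162 lies beyond the 95th percentile of 0.128.

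By antigen class, the mean window level of the B-lineage antigen was 0.858 and 0.812 over 35 sites, a difference of 0.0462 that was 0.117 with pooled reads and 0.165 with the own sites of each library. The NK and T antigens together had 0.558 and 0.745 over 408 sites, a difference of -0.187. The stem and progenitor antigens had 0.603 and 0.732 over 245 sites, a difference of -0.129 that became 0.0307 when reads were pooled instead of averaging sites. The myeloid antigens had 0.631 and 0.844 over 229 sites, a difference of -0.213. With genes given equal weight the NK and T antigens stood at -0.251 and the myeloid antigens at -0.191, so the order of these classes depended on the weighting. In promoters alone the B-lineage antigen was at 0.162 and the NK and T antigens at -0.113. The stem and progenitor antigens were then at -0.299 and the myeloid antigens at -0.376. With at least 10 reads per site the stem and progenitor antigens were at -0.0658. The classes were not uniform within: NCAM1 was at -0.0952 and CD7 at -0.407, and CD34 was at 0.00831 and CD38 at -0.196. With pooled reads NCAM1 was at -0.032, CD34 at 0.0482 and CD38 at -0.0737, and with at least 10 reads per site CD38 was at -0.119.

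**Figure D3:**
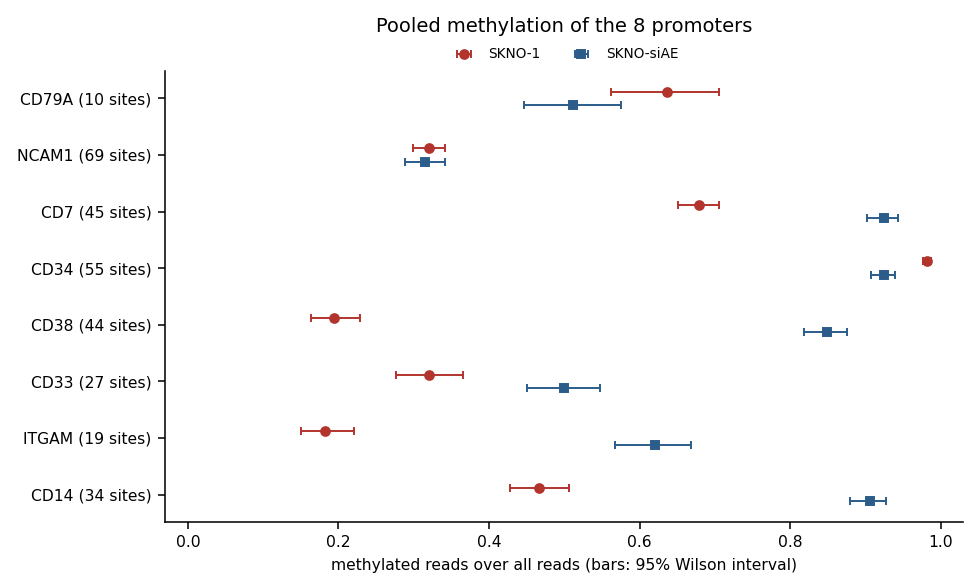
Pooled methylation of each antigen promoter (-1500 to +500 bp), as methylated reads over all reads, in SKNO-1 (red circles) and SKNO-siAE (blue squares), with 95% Wilson intervals. The intervals of NCAM1 overlap almost fully at 0.320 and 0.315, CD34 lies above 0.9 in both, and CD7, CD38, CD33, ITGAM and CD14 lie lower in SKNO-1 with intervals that do not overlap.

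The B-lineage antigen CD79A (ENSG00000105369, chr19:42381349-42385439, + strand), the alpha chain of the signalling unit of the B-cell receptor, was the only member without a lower site. Its promoter held 10 shared sites with mean levels of 0.669 and 0.507, a difference of 0.162. Among the 18049 promoters, 4% had a difference at least as high. The difference was widest in the last 300 bases before the start, printed above, which in SKNO-1 had 29 methylated reads of 85 (0.341, 95% Wilson interval 0.249 to 0.447). In SKNO-siAE, 0 of 85 reads were methylated there, at 4 sites of 19 to 22 reads each. If these reads were independent, a level of up to 0.0353 would be allowed. Thus the proximal CD79A promoter was partly methylated in SKNO-1 and without a methylated read in SKNO-siAE.

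Of these 4 sites, the one at -249 bp had 20 of 39 methylated reads in SKNO-1 against 0 of 19 in SKNO-siAE (Fisher's exact test, adjusted p = 0.000738). The site at -67 bp had 5 of 9 and 0 of 22, and was also called. The site at -134 bp had 0 of 21 and 0 of 22, so the methylation in SKNO-1 was not continuous along the stretch. All 4 sites lay on the - strand, and none was measured on the other. Farther upstream, from -624 to -456 bp, both libraries were methylated, with 78 of 83 and 113 of 136 reads, and the coding exons were methylated as well, with 407 of 418 and 220 of 223 reads.

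Of the NK and T antigens, NCAM1 (ENSG00000149294, chr11:112831997-113149158, + strand) encodes the adhesion molecule CD56, which marks NK cells. Over its 288 shared sites the mean levels were 0.594 and 0.689, with 4 sites higher and 28 lower. The promoter core was mostly unmethylated in both libraries. In the 5′ UTR, the methylated reads numbered 0 of 282 in SKNO-1 against 0 of 68 in SKNO-siAE. From -301 to +976 bp the pooled level was 0.0879 (95% interval 0.0755 to 0.102) and 0.105 (0.0896 to 0.123), and the promoter difference was -0.0174. Of the 85 sites of this core, 3 were nevertheless called lower, at -295, -289 and -241 bp, and the last of them had 0 of 29 and 12 of 21 methylated reads. All 3 lay on the + strand, and the - strand cytosines of the same CpGs were not called, with 42 of 44 and 24 of 24 reads at -294 bp, 24 of 31 and 16 of 24 at -288 bp, and 2 of 12 and 0 of 5 at -240 bp. Farther upstream, the site at -671 bp was called higher, with 68 of 89 and 21 of 78 reads.

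Most of the lower sites of NCAM1 lay downstream of this core, 17 of the 28 in 1 intronic stretch. In that stretch from +1525 to +1703 bp, the methylated reads numbered 58 of 268 in SKNO-1 against 271 of 293 in SKNO-siAE, mean site levels of 0.234 and 0.925. All of its 22 sites were on the + strand, and the sites called lower were 17 of these 22. The stretch passed the region test (Mann-Whitney U across the levels of n = 22 sites, normal approximation with ties, Bonferroni adjusted p = 0.0291), a call that was lost when sites needed 10 reads. The window of NCAM1 then held 199 of its 288 sites, with a difference of -0.109 instead of -0.0952. The lost call therefore does not measure the size of the difference. The count was 2 of 13 in SKNO-1 at each of the sites from +1543 to +1610 bp, against 11 of 11 in SKNO-siAE at +1543 bp, so neighbouring sites were read on largely the same few fragments and are not independent. From +2267 to +3103 bp the levels were 0.992 and 0.959, and the 152 sites from +83680 bp onward were methylated as well, with 0.899 and 0.973. Of these 152 sites, 8 were called lower and 3 higher, so the gene body differed at single sites too. The lower site at +230786 bp, for example, had 17 of 28 and 32 of 33 methylated reads.

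A long noncoding RNA gene of the other strand (ENSG00000247416) overlaps 119 of the NCAM1 sites, the intronic stretch included, so these sites cannot be assigned to NCAM1 alone. Reads at the NCAM1 sites were more numerous in SKNO-1, by 0.494 on the log2 scale relative to all shared sites, and by 0.610 in the surrounding 5 Mb. The part of this in the result was not tested.

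CD7 (ENSG00000173762, chr17:80272744-80275484, - strand), a surface glycoprotein of T and NK cells, showed the largest window difference of the 8 genes. Its 120 sites had mean levels of 0.472 and 0.879, with 53 sites lower and 1 higher. Of all gene windows, 556 of 19112 had a difference at least as low. Both strands were called lower at 19 of its 42 CpGs covered on both strands, and strands called in opposite directions were found at 0 CpGs in any of the 8 genes.

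Along CD7, methylated and unmethylated stretches alternated in SKNO-1, while SKNO-siAE was methylated at most sites. From -776 to -216 bp both libraries were mostly methylated, with 663 of 723 and 398 of 431 reads. The outermost site, at -776 bp, had 5 of 5 and 0 of 22 methylated reads and was the only one of CD7 called higher. Around the start, from -173 to +158 bp, the mean levels of 16 sites were 0.228 and 0.942, and 14 sites were lower. The sites at -59 and -47 bp had 0 of 27 and 0 of 26 methylated reads in SKNO-1 against 10 of 10 at each in SKNO-siAE. In the coding stretch from +652 to +899 bp the levels were closer, with 538 of 708 and 710 of 731 methylated reads. The 3′ part of the gene held the longest difference.

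This 3′ run at chr17:80272876-80273792, from +1693 to +2609 bp, covered 44 sites in introns, coding exons and the 3′ UTR. In SKNO-1, 94 of 1206 reads were methylated (0.0779, 95% interval 0.0641 to 0.0944), and in SKNO-siAE 656 of 738 (0.889, 0.864 to 0.910). It passed the region test (Mann-Whitney U, n = 44 sites, Bonferroni adjusted p = 1.45e-06), and 32 of its sites were called lower. The site at +2306 bp had 0 of 21 methylated reads in SKNO-1 against 23 of 23 in SKNO-siAE (Fisher's exact test, adjusted p = 4.5e-11). Its last part was unmethylated in both, and beyond it, from +2611 to +2631 bp, 0 of 42 and 0 of 14 reads were methylated. Reads at CD7 were more numerous in SKNO-1 by 0.522 on the log2 scale, as in the surrounding 5 Mb with 0.526, and the part of this was not tested.

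**Figure D4:**
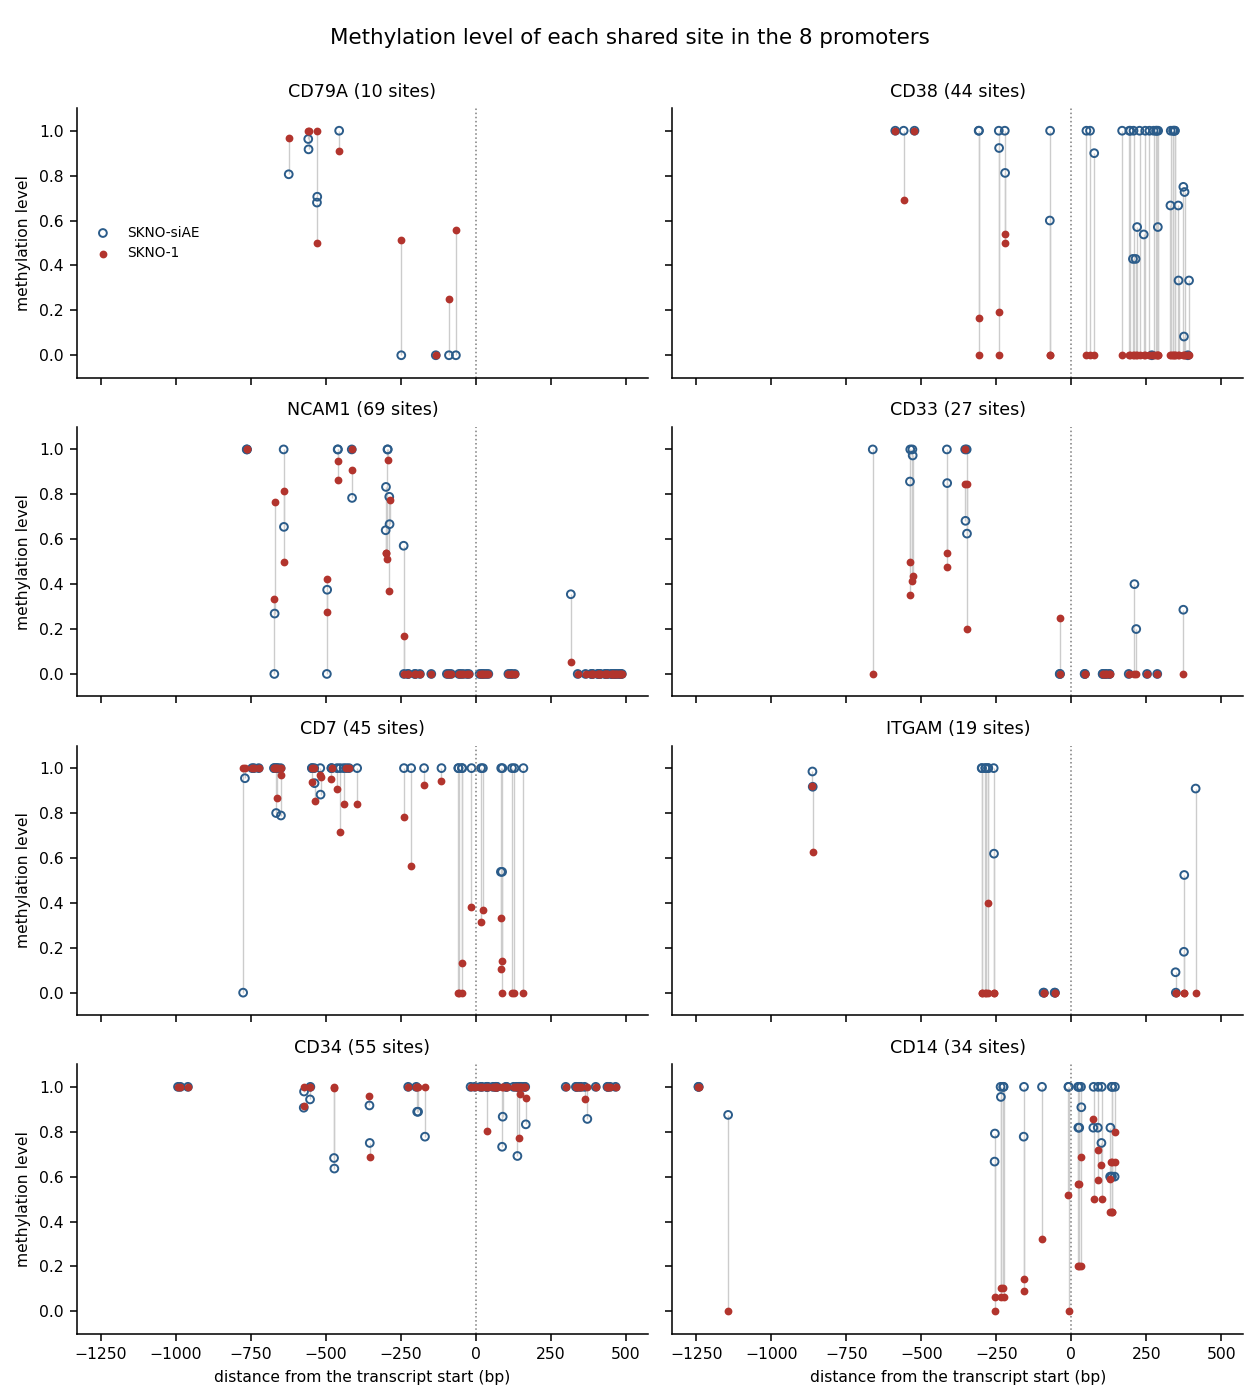
Methylation level of each shared site from -1500 to +500 bp of the canonical start, in SKNO-1 (red points) and SKNO-siAE (open blue circles), with grey lines joining the libraries at a site and a dotted line at the start. CD38, CD14, CD7 and ITGAM show low red points under high blue circles, NCAM1 is at or near 0 in both at most sites around its start, CD34 is near 1 in both, and in CD79A the red points lie above the blue at 3 of the 4 sites nearest upstream of the start.

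Of the stem and progenitor antigens, CD34 (ENSG00000174059, chr1:208054317-208084747, - strand) encodes a sialomucin that marks blood stem and progenitor cells. Its promoter was methylated in both libraries. The 55 sites had mean levels of 0.982 and 0.952, and the pooled levels were 0.982 (95% interval 0.976 to 0.987) and 0.925 (0.908 to 0.939). Over the whole window the means were 0.865 and 0.857, with 6 sites higher and 1 lower. Thus the promoter of this progenitor gene was highly methylated in both lines. Around the start it was read on 1 strand only. From +1 to +100 bp all 13 sites lay on the + strand, with 13 to 15 reads each in SKNO-siAE. From +301 to +400 bp all 7 sites lay on the - strand.

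Of the 80 sites of CD34, 7 were called. At -473 and -472 bp, the strands of a CpG, SKNO-1 had 154 of 155 and 39 of 39 methylated reads and SKNO-siAE 69 of 101 and 21 of 33, and both sites were called higher. In the 3′ UTR, the site at +25405 bp had 9 of 19 and 0 of 16 methylated reads and was called higher, whereas the site at +25439 bp had 9 of 32 and 13 of 16 and was called lower (Fisher's exact test, adjusted p = 0.00612). These neighbours were thus called in opposite directions. An intronic CpG at +3003 bp was unmethylated in both, with 0 of 19 and 0 of 16 reads. Reads at CD34 were more numerous in SKNO-1 by 0.655 on the log2 scale but only by 0.0608 in the surrounding 5 Mb, and 58 of its sites overlap a long noncoding RNA on the other strand (ENSG00000285719).

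CD38 (ENSG00000004468, chr4:15779898-15854855, + strand), an enzyme that hydrolyses NAD and is gained as progenitors leave the most immature stage, had the widest promoter difference of the 8 genes (-0.710), although from -1500 to -1 bp it was -0.568 and that of CD14 was -0.685, while its 165 sites in all had means of 0.476 and 0.672. The 44 promoter sites had mean levels of 0.093 and 0.803, with 32 sites lower and 0 higher. Of the 18049 promoters, 1.94% had a difference at least as low. The stretch from +50 to +392 bp lay in the 5′ UTR, the coding part of the exon at the start and the intron after it. There 0 of 302 reads were methylated in SKNO-1, at 33 sites of 6 to 13 reads each. If these reads were independent, a level of up to 0.00993 would be allowed, but neighbouring sites share fragments. In SKNO-siAE 322 of 406 reads were methylated there (0.793, 95% interval 0.751 to 0.830).

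The stretch at chr4:15779392-15780342, from -559 to +392 bp, passed the region test (Mann-Whitney U, n = 43 sites, Bonferroni adjusted p = 1.13e-07), a call that was also lost when sites needed 10 reads. The window of CD38 then held 88 of its 165 sites, and a run with fewer sites passes less easily. The lost call therefore does not measure the size of the difference. The 43 sites of the stretch had mean levels of 0.0719 and 0.798. At -308 bp, in the printed stretch, the methylated reads numbered 0 of 28 in SKNO-1 against 15 of 15 in SKNO-siAE (Fisher's exact test, adjusted p = 4.76e-10). On the other strand of that CpG, at -309 bp, the counts were 6 of 36 and 28 of 28. The printed CpGs were not alike, since the site at -222 bp was intermediate in SKNO-1, with 14 of 28 reads against 30 of 30, and the site at -72 bp was intermediate in SKNO-siAE, with 0 of 12 against 6 of 10.

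Within this stretch the site at -523 bp was methylated in both libraries, with 32 of 32 and 12 of 12 reads. Just upstream of it, at -587 bp, 23 of 23 and 21 of 21 reads were methylated. Downstream, from +685 to +1337 bp the methylated reads numbered 5 of 818 in SKNO-1 against 2 of 1127 in SKNO-siAE. An unmethylated stretch of the intron was therefore present in both libraries, and in SKNO-1 low levels also reached across the transcript start, with no shared site between +392 and +685 bp. The gene body from +4665 to +9606 bp was methylated, with levels of 0.920 and 0.971. Near the 3′ end, from +70175 to +70405 bp, a run of 5 sites lay higher in SKNO-1, with 0.993 and 0.667, and 3 of them were called, and this was the only run of the 10 in the antigen genes in that direction. Reads at CD38 were fewer in SKNO-1, at -0.208 on the log2 scale relative to all shared sites, and the surrounding 5 Mb was at -0.000404.

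Of the myeloid antigens, CD33 (ENSG00000105383, chr19:51728320-51747115, + strand) encodes a sialic acid-binding receptor carried by most myeloid blasts. Its 33 sites had mean levels of 0.355 and 0.475. In the promoter the levels were intermediate, with means of 0.217 and 0.403 over 27 sites, 7 of them lower. The stretch next to the start was unmethylated in both. From -39 to +373 bp 4 of 166 and 8 of 193 reads were methylated. The difference lay upstream, from -662 to -354 bp, where 8 sites had mean levels of 0.464 and 0.960 and 6 were lower. The site at -530 bp had 14 of 34 methylated reads in SKNO-1 against 22 of 22 in SKNO-siAE (Fisher's exact test, adjusted p = 3.9e-05). In the 3′ UTR 89 of 95 and 39 of 46 reads were methylated, with 1 site higher in SKNO-1.

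ITGAM (ENSG00000169896, chr16:31271288-31344213, + strand) encodes CD11b, the alpha chain of an integrin of granulocytes and monocytes that is used as a sign of myeloid differentiation. Its 108 sites had mean levels of 0.624 and 0.873, with 30 lower and 1 higher. The difference was widest at both ends of the gene. In the promoter, 19 sites had mean levels of 0.102 and 0.591, and 4.8% of all promoters had a difference at least as low.

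Upstream of ITGAM, from -299 to -93 bp, 4 of 110 reads were methylated in SKNO-1 (0.0364, 95% interval 0.0142 to 0.0898) and 96 of 121 in SKNO-siAE (0.793, 0.713 to 0.856). At -298 bp the counts were 0 of 13 and 21 of 21 (Fisher's exact test, adjusted p = 4.8e-08). The same counts were found at -286 and -277 bp, so these neighbouring sites are not independent. The last CpG of the printed stretch differed from the others, since at -93 bp 0 of 18 and 0 of 17 reads were methylated. Closer to the start, from -92 to -55 bp, 0 of 138 and 0 of 54 reads were methylated at 3 sites. If these reads were independent, up to 0.0217 and 0.0556 would be allowed. No shared site lay between -55 and +347 bp, so the start itself was not measured. A difference was seen again at +376 bp, with 0 of 21 and 11 of 21 reads, and at +414 bp, with 0 of 15 and 20 of 22 reads.

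At the 3′ end of ITGAM, from +71634 to +71815 bp, 17 sites in an intron, a coding exon and the 3′ UTR had mean levels of 0.173 and 0.979. The reads were 44 of 262 and 248 of 254, and 15 of the sites were called lower. Past this run, from +71816 to +71887 bp, 141 of 170 and 131 of 131 reads were methylated. Between the ends, from +9608 to +70346 bp, the levels of 62 sites were 0.871 and 0.910. ITGAM and CD7 were thus alike in having a low stretch of SKNO-1 near the 3′ end.

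CD14 (ENSG00000170458, chr5:140011313-140013285, - strand), the coreceptor for bacterial lipopolysaccharide on monocytes, had promoter means of 0.424 and 0.889 over 34 sites, with 22 lower and 0 higher, and window means of 0.743 and 0.947 over 88 sites. Upstream of the CD14-201 start, from -256 to -9 bp, all 11 sites were called lower, with 35 of 202 and 215 of 233 reads (0.173, 95% interval 0.127 to 0.231, and 0.923, 0.881 to 0.951). On this strand the annotated gene begins at position 140013285, farther upstream. These sites therefore lie before CD14-201 but inside the gene. At the printed CpG around -227 bp, the strands had 2 of 19 and 1 of 16 methylated reads in SKNO-1, and 24 of 24 and 23 of 23 in SKNO-siAE. From +22 to +145 bp the difference was smaller, with 192 of 338 and 227 of 262 reads, and it was wider on the + strand, with site means of 0.432 and 0.936, than on the - strand, with 0.663 and 0.779. In the coding exon from +517 to +1173 bp both libraries were methylated, with 741 of 772 and 551 of 556 reads. Of these 3 stretches, the level in SKNO-1 was thus lowest just upstream of the CD14-201 start and highest in the coding exon. That in SKNO-siAE was high in all 3 stretches. Farther upstream, from -1243 to -1144 bp, 62 of 79 and 88 of 90 reads were methylated.

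The strands of CD14 did not always match. At the CpG at the start, the - strand cytosine at -10 bp had 14 of 27 methylated reads in SKNO-1 and the + strand cytosine at -9 bp had 0 of 13, against 12 of 12 and 21 of 21 in SKNO-siAE. The mean absolute difference between strands in SKNO-1 was 0.148 over 29 CpGs of CD14, the highest of the 8 genes, whose lowest was 0.0786 in CD38. In SKNO-siAE it was 0.121 in CD14, below only the 0.167 of CD34. The run from -256 to +101 bp had mean levels of 0.335 and 0.918. Its Bonferroni adjusted p in the region test was 0.0515 (Mann-Whitney U, n = 23 sites), and it was not called. Reads at ITGAM and CD14 were more numerous in SKNO-1, by 0.315 and 0.259 on the log2 scale, while the surrounding 5 Mb stood at -0.234 and -0.0961, and the part of this was not tested.

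In all, 10 runs of at least 5 sites with a smoothed difference of at least 0.2 were found in the antigen genes, 9 lower and 1 higher in SKNO-1. Of these, 3 passed the region test, all lower, in NCAM1, CD7 and CD38. Among all 50544 runs of the genome, 4.76% were called lower and 1.05% higher. A run needed at least 17 sites to pass even with all sites at 1 in a library and at 0 in the other, so the runs of CD7, CD38, CD33 and ITGAM with fewer sites could not be called. The run at the 3′ end of ITGAM had just 17 sites and was not called (Mann-Whitney U, n = 17 sites, Bonferroni adjusted p = 1). With at least 10 reads per site, 1 region remained called, that of CD7.

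**Figure D5:**
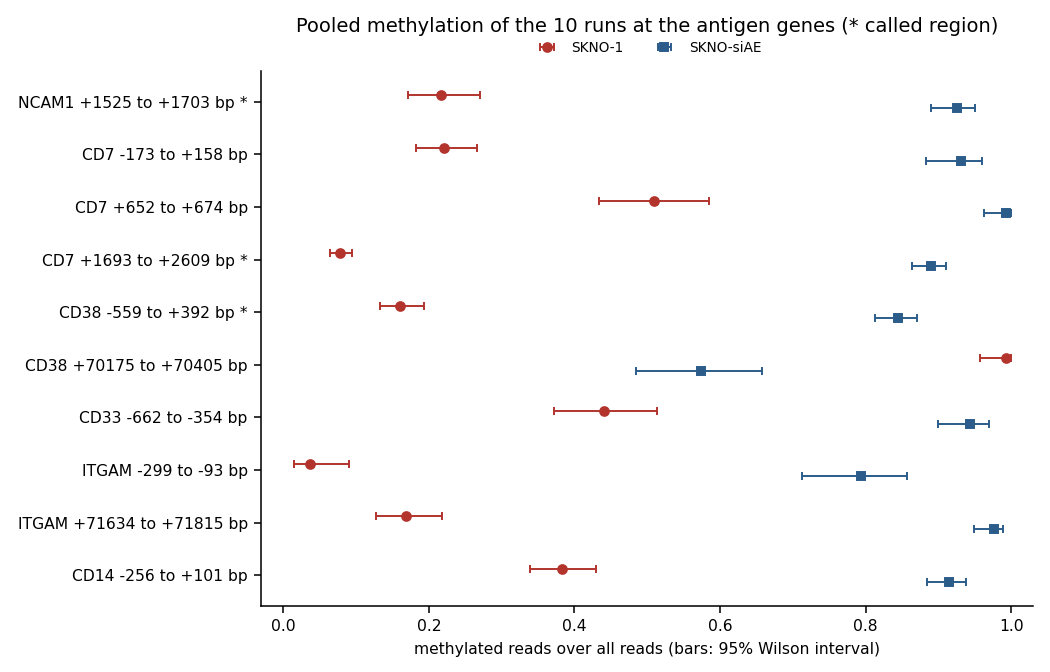
Pooled methylation of the 10 runs in the antigen genes, labelled by gene and distance from the canonical start, as methylated reads over all reads in SKNO-1 (red circles) and SKNO-siAE (blue squares) with 95% Wilson intervals. In 9 runs SKNO-1 lies lower, and at the 3′ end of CD38 it lies higher at 0.992 against 0.574.

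The RUNX core motif, TGTGGT on either strand, was searched because the fusion protein keeps the DNA-binding domain of RUNX1. It was present in the promoters of all 8 antigen genes and in 63% of 20110 promoters. Around the copy at -185 bp of CD79A, 3 sites within 100 bp had mean levels of 0.254 and 0. Around the copy at -497 bp of CD34, 6 sites had 0.985 and 0.858, and around that at -713 bp of NCAM1 6 sites had 0.735 and 0.654. In ITGAM, 2 sites near the copy at +25 bp were at 0 in both, and 5 sites near the copy at +315 bp had 0 and 0.341. The copies of CD7, CD38, CD33 and CD14 and the others of CD34 had 0 shared sites within 100 bp. The motif is a description of the sequence and not a measure of binding.

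Further genes of the same lineages were counted from lists of 54, which hold surface antigens and also other lineage genes such as PAX5, BLNK and MPO. Of the 54, 50 had at least 5 shared promoter sites, and 10 of these 50 promoters were at least 0.2 lower in SKNO-1 and 2 higher, shares of 20% and 4% against 14.5% and 3.25% of all promoters, with a median difference of -0.0477. The stem and progenitor list held 4 lower promoters of 10, with a median of -0.114. They were CD200 (0.00749 and 0.932), CD96 (0.478 and 0.910), THY1 (0.522 and 0.948) and, outside the naming rule and added after its value was seen, KIT (0.205 and 0.606). CLEC12A of the same list was higher in SKNO-1, with 0.921 and 0.628 over 6 sites.

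Among 10 further B-lineage genes, 2 promoters were lower and 1 higher. PAX5, the transcription factor that commits cells to the B lineage and activates CD79A, had 0.00278 and 0.873 over 48 sites, a difference opposite in sign to that of CD79A. CD72 had site means of 0.275 and 0.482, but pooled levels of 0.258 and 0.295 that differed by -0.0376 (95% interval -0.121 to 0.0478), and only 1 of its 16 sites was called lower. MS4A1, which encodes CD20, had 0.997 and 0.585 over 6 sites. Of 12 myeloid promoters with enough sites, 2 were lower, CD36 (0.288 and 0.913) and SIGLEC9 (0.126 and 0.379), a related receptor of CD33, and the median difference of the list was -0.000473. CSF1R and CD163 of this list had under 5 sites, and KLRF1 and NCR3 of the NK list had 0. Of 8 NK and 10 T promoters, 1 each was lower, NCR1 (0.628 and 0.865) and CD28 (0.614 and 0.922). Thus the B-lineage genes did not share a direction, and most of the further genes differed by less than 0.2.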

How the data were processed

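The authors converted genomic DNA of the 2 cell lines with bisulfite, captured it with SeqCap Epi probes and sequenced it as paired reads. They trimmed the reads, aligned them to hg19 and kept sites with at least 5 reads. The submitters' processing notes name cutadapt 1.4.2 and BSMAP 2.73. The deposited values are counts, the methylated and unmethylated reads of each CpG cytosine and strand, without normalization. All of 1299560 shared sites checked on 7 chromosomes fell on a CpG of GRCh37.

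Levels are the methylated share of a site's reads. Genes were placed with GENCODE release 44 lifted to GRCh37, and the canonical transcript set the start, numbered +1. Each of the 3168726 shared sites had a 2-sided Fisher's exact test, p-values were adjusted by Benjamini-Hochberg across them, and a call needed an adjusted p under 0.05 together with levels 0.2 or more apart. Metilene, the authors' region caller, was not used. Regions were runs of 5 or more sites with gaps up to 300 bp and a difference, smoothed over 5 sites, of 0.2 or more in size. Their site levels were compared by the Mann-Whitney U test (2-sided, normal approximation with ties), Bonferroni-adjusted by the number of shared sites. Pooled reads were given with 95% Wilson intervals, and a count of 0 with the level that 3 reads would give. Reads were simulated for the 172960 shared sites on chromosome 19, with 200 regions of at least 30 sites changed by 0.4. Of these regions 99% were recovered, with 0 region calls elsewhere, and 12.7% of 10886 changed sites were called. The simulated reads were independent between sites, and outside the changed regions both libraries had equal levels. The result therefore does not bear on shorter runs or on false calls in these data.

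All 8 antigen genes were named, with the site of largest difference among sites with at least 10 reads. Further lineage genes were named where the promoter differed by at least 0.2, at most the 3 largest per list and direction. The antigen genes, lists and tests were chosen with earlier results of these data known. Stretches outside the runs were bounded after their values were seen and carry no test, and other single sites were named after their values were seen. Alternatives were at least 10 reads, merged strands, pooled reads, own sites of each library, promoters only, promoters from -1500 to -1 bp, equal weight of genes, Bonferroni adjustment and a difference of at least 0.4. Some promoter sequences are not reported here. Tools were scipy 1.17.1, numpy 2.4.6, pandas 2.3.3, matplotlib 3.10.9 and python 3.11.15.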

Additional observations from a re-analysis of the deposited data

How the results depend on the processing

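Of 57 alternative values, 21 stayed within limits, 35 moved and 1 reversed. The limit was a ratio of 1.5 for a count and, for a difference, the half-width of the 95% interval of the pooled difference, which is wide where reads are few. The 179 lower sites became 40 under Bonferroni adjustment (4.36% against 2.28% of all sites). The 19 higher sites became 3 (0.327% against 0.669%), or 11 where levels had to differ by 0.4 (1.2% against 3.59%). The 3 called regions became 1 when sites needed 10 reads. The difference of the B-lineage antigen window, 0.0462, was 0.117 with pooled reads, 0.165 with own sites of each library and 0.162 in the promoter. That of the NK and T antigens, -0.187, was -0.151 with pooled reads, -0.159 with own sites, -0.113 in promoters and -0.251 with equal weight of the genes. That of the stem and progenitor antigens, -0.129, turned to 0.0307 with pooled reads and was -0.0658 with at least 10 reads, -0.159 with own sites, -0.299 in promoters and -0.0936 with equal weight. That of the myeloid antigens, -0.213, was -0.237 with at least 10 reads, -0.19 with pooled reads, -0.168 with own sites, -0.376 in promoters and -0.191 with equal weight. For promoters from -1500 to -1 bp, 5 of the 8 differences moved, to -0.134 in CD7, 0.0655 in CD34, -0.568 in CD38, -0.318 in CD33 and -0.685 in CD14. The causes of these changes were not tested. A median depth of 16 and 15 reads limits single sites, and no spread between cultures is known. No paired analysis was possible because there was 1 library per cell line.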

Other observations

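Some cytosines of the antigen genes reached 5 reads in 1 library only and entered no comparison. In CD33, 7 such sites of SKNO-siAE had 38 of 38 methylated reads and 12 of SKNO-1 had 30 of 105. In CD38, 114 sites were read only in SKNO-1, with 414 of 962 methylated reads, and 39 only in SKNO-siAE, with 313 of 486. In CD79A, 24 sites were read only in SKNO-siAE, with 120 of 205 methylated reads, and 8 only in SKNO-1, with 99 of 99. CD14 held 24 sites of SKNO-1 with 147 of 160 methylated reads and 19 of SKNO-siAE with 193 of 225. In CD7, 106 sites of SKNO-1 had 881 of 1414 methylated reads and 40 of SKNO-siAE had 365 of 422. Since these sets hold different cytosines, their levels are not a comparison of the libraries.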
